A study of Saccharomyces cerevisiae with 10 samples.

Results

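Translation elongation in *Saccharomyces cerevisiae* was followed here through the transcripts of 10 genes, out of 6612 transcripts measured. They encode the elongation factors eEF1A (*TEF1*, *TEF2*), eEF1B (*EFB1*, *TEF4*, *CAM1*), eEF2 (*EFT1*, *EFT2*) and eEF3 (*YEF3*), and the eEF1A chaperone and its partner (*ZPR1*, *AIM29*). The genes were taken by name, all 10 were found in every library, and all 10 are among the 5987 transcripts tested. They were chosen by their roles and with their log2 fold changes between the strains of this study already known, so those differences are given as a description and are not tested.

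The study compared RNA from 5 biological replicates of BY with RNA from 5 biological replicates of BY *UBR1* -469A>T. BY is a laboratory strain (BY4741 in the sample labels), which the strain table of the study gives as mating type a with *HIS3* and *HO* deleted. BY *UBR1* -469A>T is BY with 1 base of the *UBR1* promoter replaced by that of the vineyard strain RM, and *UBR1* encodes the ubiquitin ligase that recognizes Arg/N-degrons. All 10 cultures carry the same background, were grown in parallel in synthetic complete medium for about 7 hours to an optical density near 0.40, and were harvested together.

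During elongation, eEF1A bound to GTP brings each aminoacyl-tRNA to the ribosome, and eEF1B recharges eEF1A by exchanging its GDP for GTP. The factor eEF2 then moves the ribosome by a codon, and fungi also need eEF3, an ATPase that helps to clear the spent tRNA. Newly made eEF1A needs the chaperone Zpr1 to fold, Aim29 acts with Zpr1 in this step, and many cytosolic chaperone genes of yeast are activated by the heat shock factor Hsf1 through heat shock elements, which are inverted repeats of the unit GAA.

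The values are normalized CPM, read counts scaled to library size, which compare a transcript between libraries, and TPM, which are scaled by length as well and compare transcripts within a library. Estimated counts summed to 71103539 to 97644549 per library. After the strain means were subtracted, 59.7% of the remaining variance lay on the first principal component, called the replicate axis here. The sign of this axis was set so that it rises with replicate number. The positions of the libraries on it were taken without subtracting the strain means, so they keep the difference between strains. Positions on it, in order of replicate number, were -16.6, -20.2, -12.5, -2.26 and 11.8 in BY. In BY *UBR1* -469A>T they were -10.3, 0.58, 11.9, 14.3 and 23.3. The RNA extraction batch of each library was not used here. Of the markers of mating type a, *STE2*, which encodes the receptor for alpha pheromone, was at 273 to 391 TPM. *MFA1* was at 2033 to 3151 TPM, *MFA2* at 2374 to 3541, *BAR1* at 48.2 to 75.8 and *STE6* at 28.6 to 39.7. The alpha marker *STE3* was at 1.30 to 2.02 TPM, *SAG1* at 5.56 to 8.21, *MF(ALPHA)1* at 0.44 to 0.83 and *MF(ALPHA)2* at 0.23 to 0.61. *UBR1* itself had means of 149 ± 10.2 CPM in BY and 173 ± 8.70 CPM in the edited strain (SD, n = 5 each), and no library of one strain reached those of the other.

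*ZPR1* is shown first, with the stretch before its start codon that holds its heat shock element, because the transcripts most like it across the libraries included those of chaperone genes. It is the gene YGR211W on chromosome VII, at 915241 to 916701 on the plus strand of R64, in 1 exon of 1461 coding bases. Sequences are from RefSeq, assembly R64, and are written from 5′ to 3′ on the strand of the gene. Capitals mark, in this order, a heat shock element of 3 units in alternating direction, an RRPE and a PAC. RRPE (GAAAATTTT) and PAC (GCGATGAG) are motifs found before many genes for ribosome assembly.
*ZPR1*, chrVII:915011-915106, 230 to 135 bases before the start codon: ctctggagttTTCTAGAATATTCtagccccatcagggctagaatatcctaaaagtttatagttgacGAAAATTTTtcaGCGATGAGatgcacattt

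A heat shock element of 3 units, TTCNNGAANNTTC or GAANNTTCNNGAA on either strand, stood in the 400 bases before the start codon of 71 of 5916 genes (1.20%). A form with a gap before the last unit (TTCNNGAANNNNNNNGAA and its 3 mirror forms, on both strands) stood in 112 windows (1.89%), and a stretch of 4 or more units can match both forms. Among 18 core targets of Hsf1, each form stood before 10 (55.6%). Among the 10 genes described here, the 3-unit form stood before *ZPR1* and *EFB1*, and the gapped form before *EFB1* and *YEF3*. RRPE stood before *ZPR1*, *TEF1*, *EFT1* and *YEF3*, against 5.95% of all windows, and PAC before *ZPR1* alone, against 4.67% of all windows. The motifs STRE (AGGGG) and Rap1 core (ACCCNNACA) were sought as well. STRE stood before *AIM29* and *TEF1*, against 29.3% of all windows, and the Rap1 core before *TEF4* alone, against 4.39%. A match is a match of letters and was not tested as a binding site, and the motifs were chosen with results of these libraries known. Sites farther from the start codon, or written with other letters, were not sought.

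The elements of *EFB1* and *YEF3* are shown for comparison with that of *ZPR1*, together with those of *FES1* and *APJ1*. Across the libraries, *FES1* and *APJ1* were the genes whose levels were most like that of *ZPR1*. The next most like were *RIE1*, *CUR1* and *CMK2*, and no match to either form of the element was found in their windows. *FES1* encodes a nucleotide exchange factor of cytosolic Hsp70, and *APJ1* encodes an Hsp40 co-chaperone. Capitals mark the heat shock element, and the element of *EFB1* stands in the 742 bases between *EFB1* and *SSA1*, a divergent Hsp70 gene, 378 bases before the start codon of *EFB1* and 346 bases before that of *SSA1*.
*FES1*, chrII:444842-444874, minus strand: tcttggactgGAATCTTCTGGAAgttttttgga
*APJ1*, chrXIV:481086-481123, plus strand: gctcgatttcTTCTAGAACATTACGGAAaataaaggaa
*EFB1*, chrI:141774-141805, plus strand: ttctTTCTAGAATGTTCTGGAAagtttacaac
*YEF3*, chrXII:636386-636423, plus strand: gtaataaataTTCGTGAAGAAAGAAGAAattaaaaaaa

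*ZPR1* had the largest difference between strains of the 10 transcripts. In BY it was at 118, 168, 172, 190 and 254 CPM in replicates 1 to 5, with a mean of 181 ± 49.1 CPM (SD, n = 5). In BY *UBR1* -469A>T it was at 243, 298, 292, 299 and 280 CPM, with a mean of 282 ± 23.2 CPM (SD, n = 5). The strains overlapped through BY replicate 5, which lay above replicate 1 of BY *UBR1* -469A>T, and the other 4 BY libraries lay below all 5 libraries of the edited strain. BY replicate 1 was the lowest of the 10 libraries. The log2 fold change of BY over BY *UBR1* -469A>T was -0.55 ± 0.058 (SE). It ran from -0.59 to -0.43 as each library was left out, and it was lowest in size without BY replicate 1.

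*AIM29*, the gene for the protein that acts with Zpr1 (YKR074W, chromosome XI, 579209 to 579676, plus strand, 1 exon), lay in a narrower range than *ZPR1*. It was at 70.3, 67.5, 64.0, 60.4 and 70.5 CPM in BY and at 71.1, 67.6, 75.8, 74.1 and 77.0 CPM in BY *UBR1* -469A>T. The means were 66.5 ± 4.31 and 73.1 ± 3.81 CPM (SD, n = 5 each), and the libraries of the strains overlapped. Its log2 fold change was -0.10 ± 0.043 (SE). The highest BY library was 1.17 times the lowest for *AIM29* and 2.15 times the lowest for *ZPR1*.

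**Figure D1:**
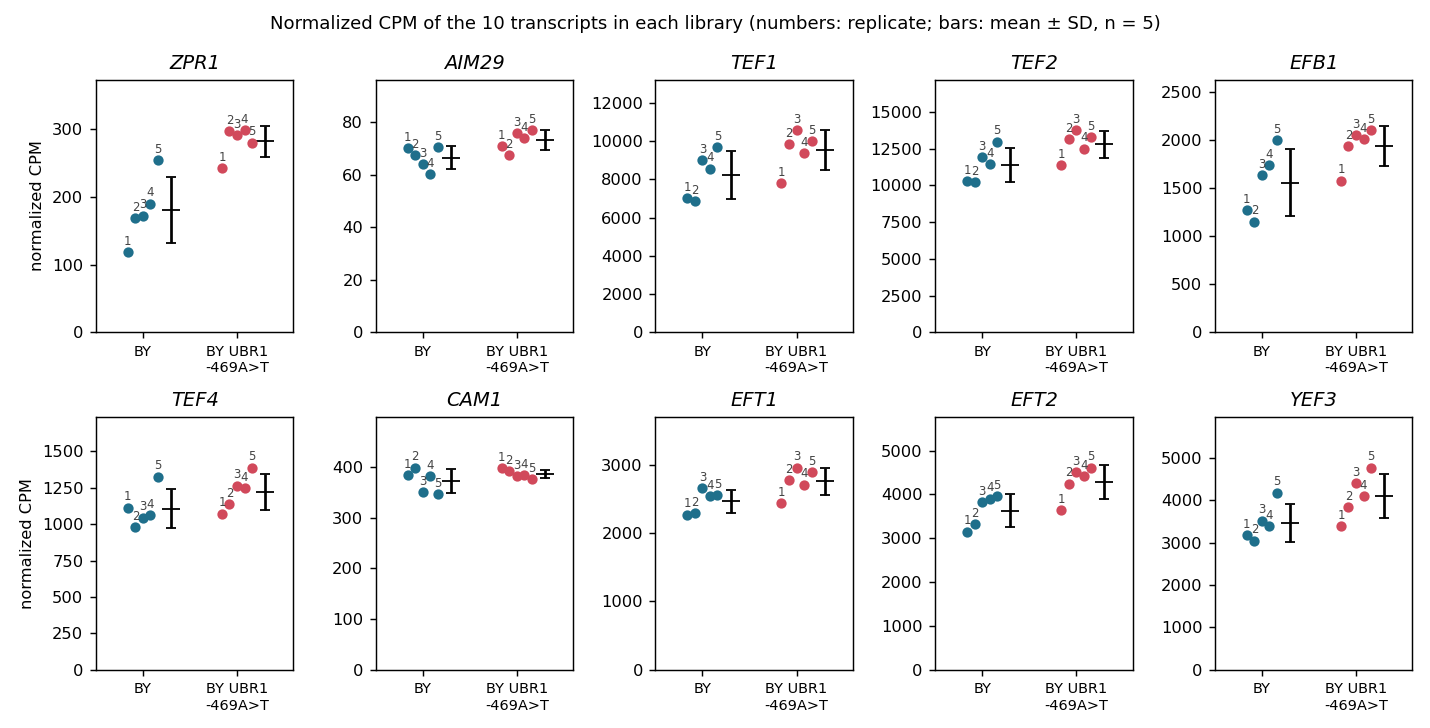
Normalized CPM of the 10 transcripts in each library, with 1 panel per transcript and 1 point per library, labelled by replicate number (BY in blue, BY *UBR1* -469A>T in red); bars are mean ± SD (n = 5). *ZPR1* is the panel in which the strains lie farthest apart, at 118 to 254 CPM in BY and 243 to 299 CPM in BY *UBR1* -469A>T.

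The eEF1A genes *TEF1* and *TEF2* are 2 copies of 1 protein. *TEF1* (YPR080W) lies on chromosome XVI at 700594 to 701970 and *TEF2* (YBR118W) on chromosome II at 477671 to 479047, both on the plus strand with 1 exon of 1377 coding bases for 458 residues. Counted from 1 at the first coding base, with the base of *TEF1* first, they differ only by T762C and T834C, both at codon position 3. The stretch around both differences is shown because reads outside such stretches fit both genes equally. Capitals mark the bases that differ.
*TEF1*, coding bases 747 to 849, chrXVI:701340-701442, plus strand: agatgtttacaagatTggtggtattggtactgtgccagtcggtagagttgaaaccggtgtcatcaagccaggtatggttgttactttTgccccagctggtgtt
*TEF2*, coding bases 747 to 849, chrII:478417-478519, plus strand: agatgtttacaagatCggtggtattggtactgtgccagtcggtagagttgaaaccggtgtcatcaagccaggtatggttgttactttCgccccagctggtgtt

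Of the 1347 overlapping words of 31 bases in the *TEF1* coding sequence, 62 (4.60%) were its own and 1285 were shared with *TEF2*. Kallisto assigns reads by such words, and the word length that the authors used is not given in the sources used here. The separate values of *TEF1* and *TEF2* are therefore uncertain, while their sum does not depend on how shared reads were divided.

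*TEF1* was at 7015, 6857, 8983, 8553 and 9695 CPM in BY and at 7803, 9824, 10557, 9377 and 9988 CPM in BY *UBR1* -469A>T. *TEF2* was at 10280, 10220, 11938, 11432 and 12977 CPM in BY and at 11358, 13125, 13748, 12506 and 13297 CPM in BY *UBR1* -469A>T. For both genes BY replicates 1 and 2 were the lowest of the 10 libraries, replicate 1 was the lowest of the edited strain, and the strains overlapped. With both genes summed, the log2 fold change was -0.11 ± 0.059 (SE), and it ran from -0.16 without replicate 1 of the edited strain to -0.056 without replicate 2 of that strain. Neither gene nor the sum was called.

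*EFB1* encodes eEF1Bα, the subunit that exchanges the nucleotide of eEF1A (YAL003W, chromosome I, 142174 to 143160, plus strand, 2 coding exons around an intron of 366 bases). It was at 1268, 1149, 1632, 1735 and 1993 CPM in BY and at 1576, 1932, 2045, 2004 and 2098 CPM in BY *UBR1* -469A>T. BY replicates 1 and 2 were again the lowest, and BY replicates 3, 4 and 5 lay within the range of the edited strain. The means were 1555 ± 346 and 1931 ± 208 CPM (SD, n = 5 each), and the log2 fold change was -0.17 ± 0.069 (SE). It ran from -0.20 to -0.11 as each library was left out, the latter without replicate 2 of the edited strain. *SSA1*, across the shared upstream region, was at 2010 to 2986 CPM in BY and at 1939 to 3094 CPM in the edited strain, with its lowest value in replicate 5 of both strains, where *EFB1* was highest.

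*TEF4* and *CAM1* encode the eEF1Bγ subunits, which hold the exchange complex together. *TEF4* (YKL081W) lies on chromosome XI at 282891 to 284455, with 2 coding exons around an intron of 326 bases, and *CAM1* (YPL048W) on chromosome XVI at 464401 to 465648, with 1 exon. Their proteins are 64.5% identical, and the coding sequences share 5 words of 31 bases, so their counts are nearly independent of each other. *TEF4* was at 978 to 1328 CPM in BY and 1073 to 1389 CPM in BY *UBR1* -469A>T, with a log2 fold change of -0.03 ± 0.042 (SE), which became 0.014 with 1 surrogate variable in place of 2.

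*CAM1* was at 384, 398, 349, 381 and 346 CPM in BY and at 398, 391, 381, 384 and 376 CPM in BY *UBR1* -469A>T. It was lowest in replicate 5 of both strains, where *TEF4* was highest. Its log2 fold change was -0.09 ± 0.040 (SE) in the fit with 2 surrogate variables. Without such variables, the mean log2 difference of BY from the edited strain was -0.056 in normalized CPM and 0.026 in TPM. In TPM its mean was higher in BY (147 ± 9.79 against 145 ± 4.05, SD, n = 5 each), so the direction depended on the scale. The median of all transcripts tested lay 0.09 higher in BY on the log2 scale in TPM than in BY *UBR1* -469A>T, and within 0.01 of 0 in normalized CPM.

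*EFT1* (YOR133W, chromosome XV, 575098 to 577626) and *EFT2* (YDR385W, chromosome IV, 1243230 to 1245758) both encode eEF2, of 842 residues, in 1 exon of 2529 coding bases on the plus strand. With the base of *EFT1* first, they differ by A447G, C882T, C2145T and C2364T, all at codon position 3. Of 2499 words of 31 bases, 124 (4.96%) were particular to each gene. The first difference is shown, in capitals, as an example of a stretch that tells the genes apart.
*EFT1*, coding bases 432 to 462, chrXV:575529-575559, plus strand: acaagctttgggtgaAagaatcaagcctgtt
*EFT2*, coding bases 432 to 462, chrIV:1243661-1243691, plus strand: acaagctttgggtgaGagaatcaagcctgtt

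*EFT2* was at 3153, 3315, 3817, 3904 and 3966 CPM in BY and at 3645, 4245, 4515, 4425 and 4612 CPM in BY *UBR1* -469A>T. Only replicate 1 of the edited strain lay within the range of BY, and the other 4 libraries of that strain lay above all 5 BY libraries. The log2 fold change was -0.15 ± 0.050 (SE). It was -0.070 without BY replicate 5 and -0.22 without replicate 1 of the edited strain, and its call ended in 6 of 10 cases in which 1 library was left out. *EFT1* was at 2272 to 2661 CPM in BY and at 2443 to 2962 CPM in the edited strain, with a log2 fold change of -0.11 ± 0.054 (SE), which was -0.041 without BY replicate 5 and -0.17 without replicate 1 of the edited strain. For the sum of both genes it was -0.14 ± 0.050 (SE), and -0.059 without BY replicate 5.

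*YEF3*, the gene for eEF3 (YLR249W, chromosome XII, 636780 to 639914, plus strand, 1 exon), was at 3173, 3046, 3518, 3392 and 4181 CPM in BY. In BY *UBR1* -469A>T it was at 3391, 3847, 4403, 4100 and 4770 CPM. Replicate 5 was the highest library of each strain, and the strains overlapped over most of the range of BY. The log2 fold change was -0.11 ± 0.046 (SE). Its relative *HEF3*, whose protein is 83.8% identical and which shares 16 words of 31 bases with it, was at 1.74 to 2.12 TPM, while *YEF3* was at 437 to 644 TPM.

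All 10 log2 fold changes were negative, that is, lower in BY, from -0.55 for *ZPR1* to -0.03 for *TEF4*, with a median of -0.11 against -0.0012 over all 5987 transcripts tested. By edgeR's quasi-likelihood test, 2 of 10 were called at an adjusted p under 0.1, *ZPR1* and *EFT2*, both lower in BY. Over all transcripts 21.2% were called, 11.9% as lower in BY and 9.32% as higher. The paper, with extraction batch and optical density also in its model, reported far fewer transcripts at this threshold. None of the 10 had libraries that separated by strain, against 2.92% of all transcripts. By edgeR, 6 of 10 had an unadjusted p under 0.05, against 1758 of all 5987 transcripts. DESeq2 called 4 of 10, against 1430 of all 5987. The call of *ZPR1* ended without surrogate variables (log2 fold change -0.64) and with 1 (-0.46), and that of *EFT2* ended in 9 of 21 alternatives. Leaving out a library left 1 member called without BY replicate 2 or 5 or replicate 2, 3 or 4 of the edited strain, and 5 without BY replicate 3.

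**Figure D2:**
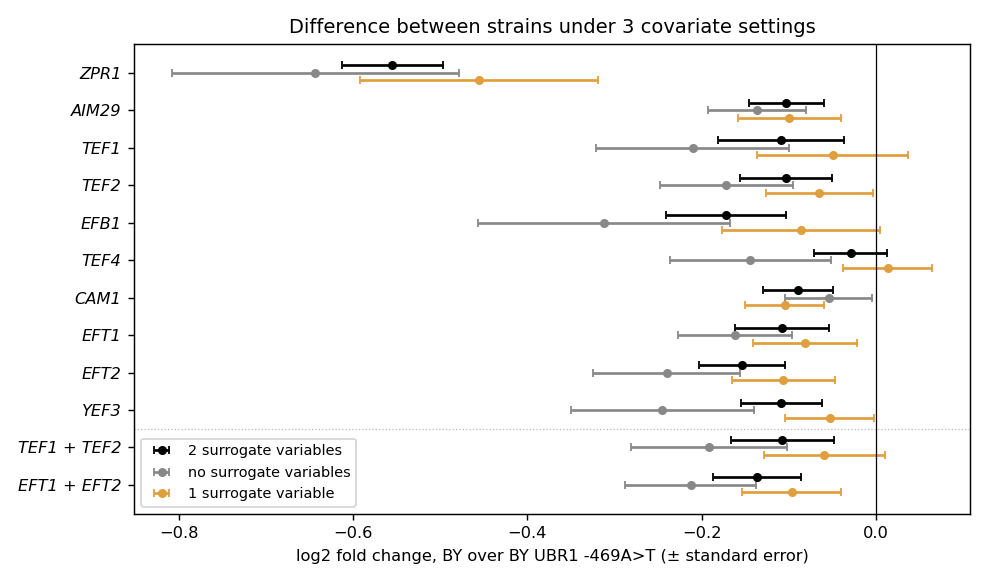
Log2 fold change of BY over BY *UBR1* -469A>T (horizontal axis, ± SE) for the 10 transcripts and the summed pairs, with 2, 0 and 1 surrogate variables. *ZPR1* lies at -0.55, -0.64 and -0.46 in these settings, and *TEF4* crosses 0 only with 1 surrogate variable.

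Per length, the 10 transcripts spanned a wide range of levels. The order by mean TPM over the BY libraries was *TEF2* (4006 ± 396), *TEF1* (2896 ± 424), *EFB1* (1573 ± 339), *EFT2* (641 ± 61.3), *YEF3* (485 ± 59.2), *TEF4* (442 ± 50.2), *EFT1* (436 ± 30.3), *CAM1* (147 ± 9.79), *AIM29* (108 ± 7.45) and *ZPR1* (59.3 ± 15.8; TPM, SD, n = 5 each). Within libraries, *EFT2* was above *YEF3* in 10 of 10 and *YEF3* above *EFT1* in 10 of 10 and above *TEF4* in 9 of 10, while *TEF4* was above *EFT1* in 4 of 10, so the order of these last neighbours was not settled. The orders of *TEF2* and *TEF1* and of *EFT2* and *EFT1* depend on how shared reads were divided. In BY *UBR1* -469A>T, *ZPR1* was again the lowest, at 87.5 ± 6.39 TPM (SD, n = 5), and *TEF2* the highest, at 4262 ± 299 TPM (SD, n = 5). By mean TPM over all libraries, *TEF2* ranked 37 and *TEF1* ranked 56 among the 6612 transcripts, while *ZPR1* ranked 1247. All 10 together made up 1.08% ± 0.13 of the TPM in BY and 1.18% ± 0.10 in the edited strain (SD, n = 5 each).

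**Figure D3:**
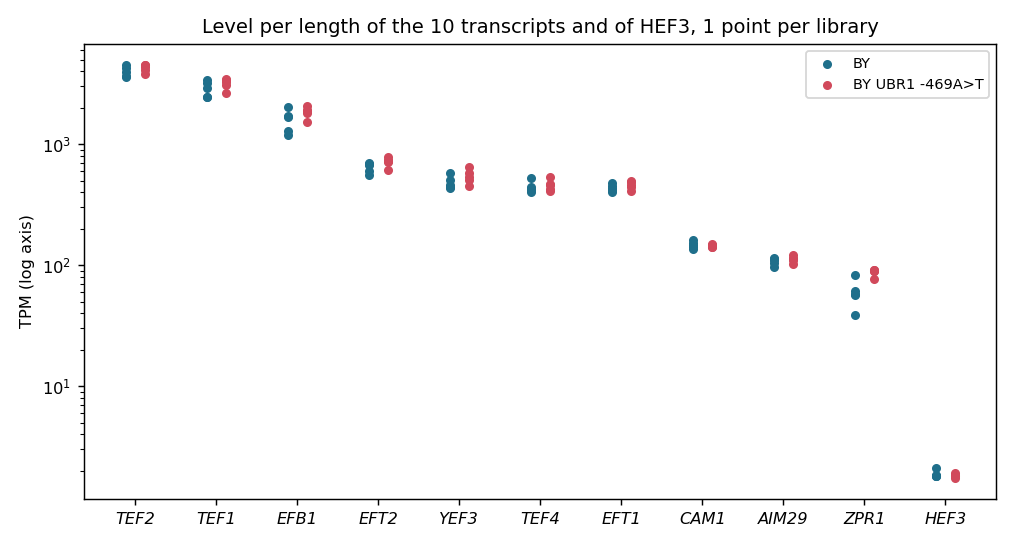
TPM (log axis) of the 10 transcripts and of *HEF3*, 1 point per library, BY in blue and BY *UBR1* -469A>T in red, ordered by level. The levels run from *TEF2* at 3607 to 4539 TPM down to *ZPR1* at 38.7 to 91.9 TPM, with *HEF3* at 1.74 to 2.12 TPM.

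Within a library, the ratio of eEF1A transcripts to those of its partners can be read per length. The sum of *TEF1* and *TEF2* was 4.47 ± 0.53 times *EFB1* in BY and 4.03 ± 0.21 times in BY *UBR1* -469A>T, 11.7 ± 1.18 and 12.3 ± 0.82 times the sum of *TEF4* and *CAM1*, and 6.39 ± 0.33 and 6.31 ± 0.17 times the sum of *EFT1* and *EFT2* (SD, n = 5 each). All of these ratios overlapped between strains. The sum of *EFT1* and *EFT2* was 2.24 ± 0.17 times *YEF3* in BY and 2.18 ± 0.12 times in the edited strain, which also overlapped.

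The ratio of eEF1A transcripts to its chaperone was the exception. *TEF1* and *TEF2* together were 157, 109, 130, 113 and 95.6 times *ZPR1* in BY and 84.6, 82.7, 89.3, 78.6 and 89.1 times in BY *UBR1* -469A>T. All 5 BY ratios lay above all 5 of the edited strain, with means of 121 ± 23.6 and 84.9 ± 4.53 (SD, n = 5 each). As *ZPR1* was chosen with its difference between strains known, this separation is a description and was not tested. *AIM29* was 1.93 ± 0.60 times *ZPR1* in BY and 1.28 ± 0.13 times in the edited strain (SD, n = 5 each), and those ratios overlapped.

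Whether members vary together among replicates was tested on deviations of log2 CPM from the strain mean, which hold no difference between strains. For 9 pairs, libraries were permuted within strains in an exact two-sided permutation test with 14400 arrangements over 10 libraries, and p values were adjusted over the 9 pairs by the Benjamini-Hochberg method. *YEF3* rose and fell with the eEF2 genes *EFT1* and *EFT2* (Pearson r = 0.85, exact p = 0.0016, adjusted 0.0072; Spearman rho = 0.96, exact p = 0.00021, adjusted 0.00094). Without the pair of libraries farthest from the median of *YEF3*, r was 0.75, and the call ended without replicate 1 of the edited strain (r = 0.77). With single members, r of *YEF3* ran from -0.81 for *CAM1* to 0.92 for *TEF4*, and it was 0.89 for *TEF2*. A high r was thus not particular to the eEF2 genes. *ZPR1* correlated with the sum of *TEF1* and *TEF2* by Pearson r = 0.77 (exact p = 0.015, adjusted 0.034), but by Spearman rho = 0.59 (exact p = 0.11, adjusted 0.17) it did not pass, and r was 0.70 without BY replicates 1 and 5. The Pearson call ended in 4 of 10 cases in which 1 library was left out (without BY replicate 1 or 5 or replicate 1 or 3 of the edited strain), with r between 0.64 and 0.79 in those. For *ZPR1* and *AIM29* no relation was detected (r = -0.06, exact p = 0.90, adjusted 0.90; rho = -0.13, exact p = 0.76, adjusted 0.79), and r was 0.37 without BY replicate 1, -0.55 without BY replicate 5 and -0.20 without both, so that even its sign rested on these libraries.

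The eEF1B subunits moved in different directions among replicates. *EFB1* and *TEF4* correlated positively (r = 0.73, exact p = 0.023, adjusted 0.038; rho = 0.72, exact p = 0.017, adjusted 0.048), while *TEF4* and *CAM1* correlated negatively (r = -0.69, exact p = 0.025, adjusted 0.038; rho = -0.67, exact p = 0.026, adjusted 0.048). Without the pair of libraries farthest from the median, r fell to 0.51 for *EFB1* and *TEF4* and to -0.42 for *TEF4* and *CAM1*. Both calls ended in log2 TPM (r = 0.70 and -0.65), and the second also under upper quartile normalization (r = -0.48). With 1 library left out, the first call ended in 6 of 10 cases (r = 0.55 to 0.82 over all 10) and the second in 8 of 10 (r = -0.93 to -0.48). The near-identical pairs correlated at r = 0.99 for *TEF1* with *TEF2* (exact p = 6.9e-05, the smallest that these permutations can give, adjusted 0.00063; rho = 0.99, with the same p) and r = 0.93 for *EFT1* with *EFT2* (exact p = 0.005, adjusted 0.015; rho = 0.76, exact p = 0.022, adjusted 0.048). Their shared reads enter both members of a pair, and without the farthest libraries r was 0.98 and 0.82. The call of *EFT1* with *EFT2* ended without replicate 1 of the edited strain (r = 0.88).

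Members also followed the replicate axis, with r from 0.69 to 0.94 for *ZPR1*, *TEF1*, *TEF2*, *EFB1*, *TEF4*, *EFT1*, *EFT2* and *YEF3*, 0.36 for *AIM29* and -0.67 for *CAM1* within strains over 10 libraries. The part of this axis in the pair correlations was not tested. In log2 TPM, as in log2 CPM, *CAM1* was negatively correlated with each of the other 9 members, from r = -0.91 with *EFB1* to -0.08 with *AIM29*, which is given as a description. The SD within strains on the log2 scale was 0.29 for *ZPR1*, at percentile 86.4 of all transcripts tested, and 0.07 for *CAM1*, at percentile 14.6.

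**Figure D4:**
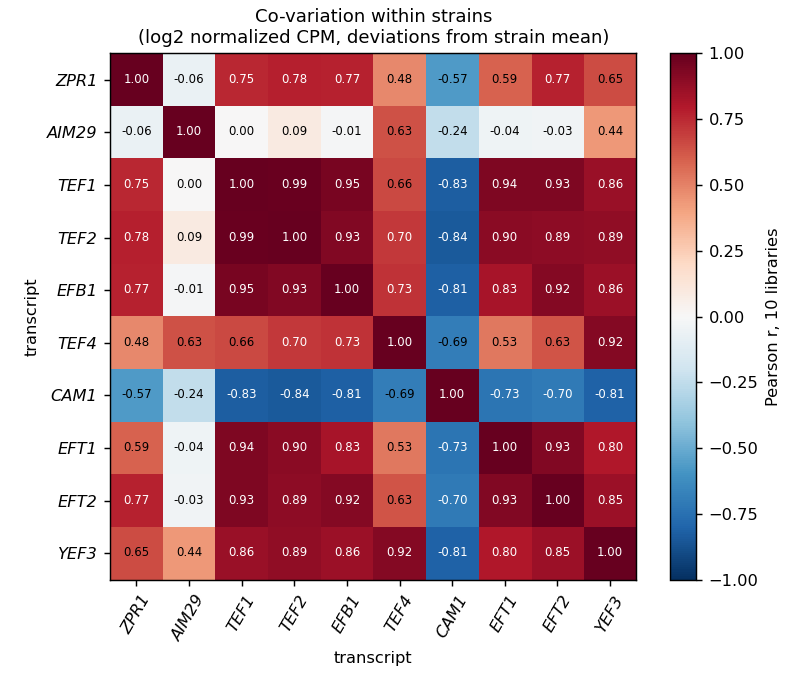
Pearson r over 10 libraries between the 10 transcripts, on deviations of log2 normalized CPM from the strain mean (red positive, blue negative). *CAM1* is negative with every other member, *AIM29* lies between -0.24 and 0.63, and the remaining pairs are positive, from 0.48 for *ZPR1* with *TEF4* to 0.99 for *TEF1* with *TEF2*.

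The transcripts most like *ZPR1* over the 10 libraries were sought among 5139 transcripts with a mean of at least 10 CPM, by Pearson r of log2 CPM. They were *FES1* (r = 0.99), *APJ1* (0.99), *RIE1* (0.98), *CUR1*, which encodes a protein-sorting factor (0.98), and *CMK2*, a calmodulin-dependent kinase gene (0.98). Within strains the same r was between 0.94 and 0.98. *FES1* was at 82.2, 123, 136, 143 and 189 CPM in BY and at 193, 217, 230, 225 and 215 CPM in BY *UBR1* -469A>T, so that its lowest library and its highest BY library were those of *ZPR1*. These correlations are a description, since all transcripts of a library share its culture and its depth.

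*AIM29* had other neighbours: *APC11*, a subunit gene of the anaphase-promoting complex (r = 0.97), *PMP1*, which encodes a small regulator of the plasma membrane proton pump (0.95), *AOS1* of SUMO activation (0.93), *AAN1* (0.92) and YPR147C (0.91). The transcripts most like *YEF3* were *RGS2* (0.98), *TRS31* (0.98), *LTO1* (0.98), *ASP1* (0.98) and *MTQ2* (0.98). *MTQ2* encodes the methyltransferase of the release factor eRF1, and *ASP1* encodes the cytosolic asparaginase. No transcript was in more than 1 of these 3 lists.

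Of 18 core targets of Hsf1, 17 were called, all as lower in BY, against 11.9% of all transcripts called as lower, with a median log2 fold change of -0.25. The largest differences were those of *BTN2*, a sorting factor for misfolded proteins (-1.28), *FES1* (-0.60) and the Hsp90 gene *HSP82* (-0.55), while *HSC82*, the other Hsp90 gene, with which *HSP82* can share reads, was not called (-0.15). The count was 11 without BY replicate 5 and 9 without replicate 2 of the edited strain. By edgeR it was 0 without surrogate variables (12 at an unadjusted p under 0.05) and 2 with 1, and DESeq2 with 2 called 18. Within strains, r of *ZPR1* with single targets ran from -0.31 for *SSA1* to 0.98 for *FES1*, with a median of 0.70, and it exceeded 0.9 for 4 of 18 (*FES1*, *CUR1*, *BTN2* and *STI1*). With the median of the 18 targets in each library, *ZPR1* correlated within strains at r = 0.79 (exact permutation p = 0.075, adjusted 0.096; rho = 0.32, exact p = 0.44, adjusted 0.57). This relation rested on BY replicates 1 and 5, without which r was -0.33. *AIM29* showed none that was detectable (r = -0.20, exact permutation p = 0.67, adjusted 0.76; rho = -0.12, exact p = 0.79, adjusted 0.79; r = -0.26 without the farthest libraries).

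**Figure D5:**
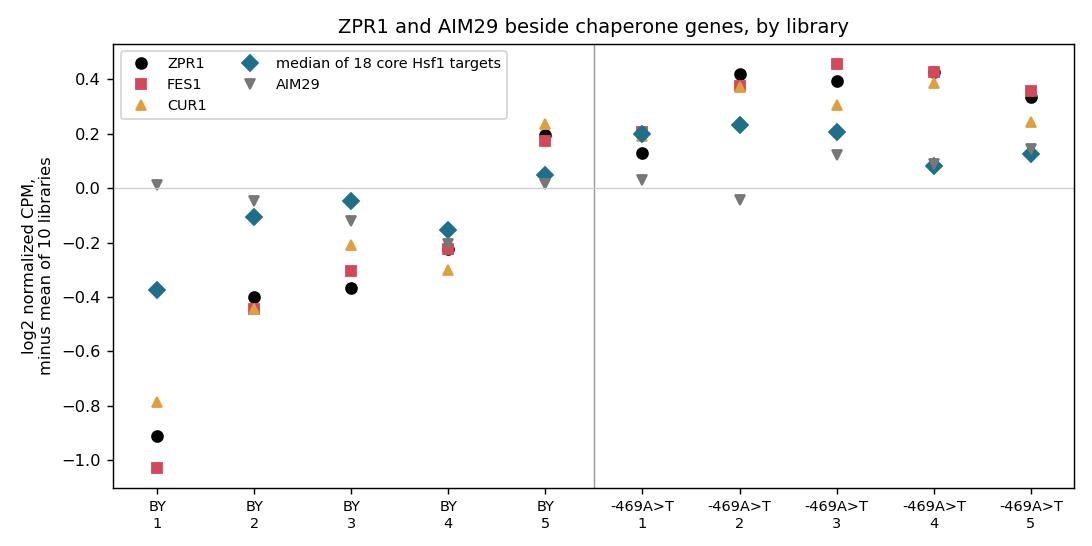
Log2 normalized CPM minus the mean of the 10 libraries (vertical axis) for *ZPR1*, *FES1*, *CUR1*, *AIM29* and the median of 18 core Hsf1 targets, with the 5 BY libraries at the left and the 5 libraries of BY *UBR1* -469A>T at the right. *ZPR1* runs from -0.91 in BY replicate 1 to 0.43 in replicate 4 of the edited strain, close to *FES1* in every library, while the Hsf1 median runs from -0.37 to 0.23 and *AIM29* lies closer to 0 than *ZPR1* in each library.

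The wider translation machinery was followed in 85 other genes in 6 lists, all of them tested. In all, 16 were called as lower in BY and 1 as higher, 20% called against the 21.2% of all transcripts. Over all transcripts, 11.9% were called as lower in BY and 9.32% as higher. A negative log2 fold change was found for 76 of 85, against 3021 of all 5987 transcripts. The lists differed in how many were called, and the difference between lists was not tested.

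Enzymes that modify elongation factors held most of these calls. Of 16, 9 were called as lower in BY, against 11.9% of all transcripts, and none as higher. None of these calls remained without BY replicate 5, or with 0 or 1 surrogate variable. All 16 log2 fold changes were negative, with a median of -0.13. *JJJ3* and *DPH2*, which act in the synthesis of diphthamide, the modified histidine of eEF2, differed by log2 fold changes of -0.35 ± 0.076 (SE, edgeR adjusted p = 0.017) and -0.22 ± 0.054 (SE, edgeR adjusted p = 0.023). *DPH2* was at 68.8, 69.7, 68.9, 91.3 and 100.2 CPM in BY and at 86.3, 98.1, 104, 110 and 110.4 CPM in BY *UBR1* -469A>T, and the strains overlapped. *JJJ3* was low, at 3.66 ± 1.32 and 6.14 ± 2.13 CPM (SD, n = 5 each). *KTI11*, which also serves diphthamide synthesis, differed by -0.20 ± 0.063 (SE, edgeR adjusted p = 0.061). *DPH1*, *DPH5*, *DPH6* and *RRT2*, also of diphthamide synthesis and named after their values were seen, were not called. Their log2 fold changes were -0.14, -0.098, -0.020 and -0.0022. *DYS1* and *LIA1*, the enzymes that make hypusine on eIF5A, were named after their values were seen, and differed by -0.13 ± 0.039 (SE, edgeR adjusted p = 0.048) and -0.15 ± 0.049 (SE, edgeR adjusted p = 0.071). *DYS1* was at 358 ± 11.7 CPM in BY and 391 ± 11.6 CPM in the edited strain (SD, n = 5 each), with no overlap of libraries.

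Of 10 other elongation, termination and recycling factors, 1 was called, *ANB1*, the eIF5A gene that is expressed in low oxygen (-0.20 ± 0.063, SE, edgeR adjusted p = 0.056). It was low, at 14.3 ± 0.51 and 16.3 ± 1.36 CPM (SD, n = 5 each), its libraries did not overlap between strains, and it can share reads with its relative *HYP2*. Of 8 nascent chain chaperones, 1 was called, *ZUO1*, the Hsp40 of the ribosome-associated complex (-0.13 ± 0.040, SE, edgeR adjusted p = 0.055). *CHP1*, another chaperone of nascent eEF1A, was named after its values were seen: it was at 238 ± 16.7 CPM in BY and 223 ± 18.6 CPM in the edited strain (SD, n = 5 each), with a log2 fold change of 0.02 ± 0.041 (SE).

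Of 22 cytosolic aminoacyl-tRNA synthetase genes, 2 were called as lower in BY, *WRS1* (-0.12 ± 0.035, SE, edgeR adjusted p = 0.042) and *DED81* (-0.12 ± 0.044, SE, edgeR adjusted p = 0.095), and all 22 log2 fold changes were negative, with a median of -0.07. Of 26 initiation factors, 3 were called as lower, *DED1* (-0.16 ± 0.041, SE, edgeR adjusted p = 0.026), *PAB1* (-0.13 ± 0.047, SE, edgeR adjusted p = 0.088) and *GCD2* (-0.13 ± 0.029, SE, edgeR adjusted p = 0.016), with a median of -0.06 over the list. Of 3 mitochondrial elongation factors, *MEF1*, the mitochondrial counterpart of eEF2, was called as higher in BY (0.13 ± 0.038, SE, edgeR adjusted p = 0.052). The count over these 85 genes moved with single libraries: 17 became 0 without BY replicate 5 (11 at an unadjusted p under 0.05 by edgeR), 8 without BY replicate 2, and 1, 7 and 6 without replicates 2, 3 and 4 of the edited strain. It was 0 with no or with 1 surrogate variable (29 and 10 at an unadjusted p under 0.05), and DESeq2 with 2 called 24.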

How the data were processed

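The 10 libraries were grouped by the genotype in the sample labels. The authors trimmed and filtered reads with fastp, pseudoaligned them with Kallisto to the Ensembl version 96 transcripts and deposited, for each transcript, an estimated count and a TPM value. The estimated counts, deposited without normalization, were rounded before testing. The deposited TPM values are scaled within a library and keep no depth, and were used for levels and ratios only. Libraries were stranded.

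A transcript was tested if its estimated count reached 10 in all libraries and its effective length reached 1. The test was the quasi-likelihood F test of edgeR 4.0.16 (R 4.3.3) on TMM-scaled counts, with 2 surrogate variables from svaseq (sva 3.50.0) as covariates, Benjamini-Hochberg adjustment over 5987 transcripts and a threshold of 0.1. Standard errors were derived from the fold change and F. The authors fitted DESeq2 with batch, density and surrogate variables, and DESeq2 1.42.0 served as an alternative here. Batch and density were in none of the fits made here. At the same threshold the paper reported far fewer differing transcripts than were called here by either tool with 2 surrogate variables. Replicates always differed by more than counting error, with chi-square values of 67.5 to 544 for each degree of freedom. P values of edgeR measure the spread between these cultures that was left after 2 surrogate variables, which were estimated from the same 10 libraries. Without these variables, 0 of 5987 transcripts were called.

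The members, lists and motifs were chosen with earlier results of these data known. Genes named in the text are the 10 members, *UBR1*, at most 3 called transcripts per list and direction by size, and the 5 transcripts most like *ZPR1*, *AIM29* and *YEF3*; others are identified in the text. Coordinates and sequences come from R64, in which 99.8% of the 5917 transcripts matched by a coding sequence had the same length as in the deposited tables. For co-variation all 14400 arrangements were enumerated in place of random draws. Procedures were tested on simulated data. Other settings changed the tool, the surrogate variables, the count minimum, the scaling or the threshold, summed the paralogs, added a replicate block or left out 1 library.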

Additional observations from a re-analysis of the deposited data

How the results depend on the processing

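No member fell below 5192 estimated counts in a library, and the effect of depth was not tested. *ZPR1* kept its direction in all 22 alternatives (-0.68 to -0.43) and its call in 20. *TEF4* changed sign with 1 surrogate variable (0.014). In what follows, counts are of all transcripts, members, other translation genes and Hsf1 targets called, in that order where several are given. At a threshold of 0.05, 756 transcripts, 1 member and 6 translation genes were called. Without surrogate variables edgeR called 0 of each (1400 transcripts at an unadjusted p under 0.05, 6 members, 29 translation genes and 12 Hsf1 targets), and with 1 it called 43, 0 (2 unadjusted), 0 (10 unadjusted) and 2. With 3, 1841 transcripts, 6 members and 32 translation genes were called. DESeq2 called 1430 transcripts and 4 members. A minimum count of 100 gave 1700 of 5571 transcripts, 5 members and 28 translation genes. No minimum gave 10 translation genes, and upper quartile normalization 11. The share of calls that were lower in BY was 56.0%, and 46.8% under upper quartile normalization. Leaving out 1 library gave 246 to 1289, 1 to 5, 0 to 19 and 9 to 18.

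The summed *EFT1* and *EFT2* was no longer called at 0.05 (-0.14), with 0 (-0.21) or 1 (-0.10) surrogate variables, without a minimum (-0.15), or with upper quartile (-0.12) or RLE (-0.13) normalization, and in 7 of 10 cases with a library left out (-0.20 to -0.059 over all 10). Correlation calls ended in log2 TPM for *EFB1* with *TEF4* (0.70) and *TEF4* with *CAM1* (-0.65), and for the latter with upper quartile normalization (-0.48). As a library was left out they were 0.64 to 0.83 (*ZPR1* with *TEF1* and *TEF2*, call ended in 4 of 10), 0.88 to 0.95 (*EFT1* with *EFT2*, 1 of 10), 0.55 to 0.82 (*EFB1* with *TEF4*, 6 of 10), -0.93 to -0.48 (*TEF4* with *CAM1*, 8 of 10) and 0.77 to 0.90 (*YEF3* with *EFT1* and *EFT2*, 1 of 10). The cause of these changes was not tested.

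Replicate numbers are shared between strains but were not taken to pair the cultures, since no label says so and not every pair was over 0.1: same-numbered libraries correlated at 0.29, 0.52, -0.01, 0.48 and 0.68. A replicate block gave 2373 transcripts, 9 members and 50 translation genes called, and with 2 surrogate variables estimated beside it 3274, 9 and 67. In these fits with the block the summed *TEF1* and *TEF2* was called, at -0.19 and -0.18.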
